A study of Mus musculus with 32 samples.

Results

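RNA recovered with proteins near PSD95 was compared between depolarized and resting mouse cortical neurons. The comparison rests on the 8 libraries, of 32 in the series, whose titles name them as PSD95 pulldowns, 4 from depolarized cultures (DEP) and 4 from resting cultures (REST), paired by the replicate number in the title. Cortical cultures from CD-1 mouse embryos were transduced with a lentivirus that expressed TurboID fused to rat PSD95 under doxycycline control, flanked by the PSD95 untranslated regions, so the bait was an added copy of the protein in cultured cells. DEP cultures were silenced with tetrodotoxin and DL-AP5 for 2 h, held in 55 mM KCl for 1 h and then kept for 30 min without KCl. REST cultures are labelled with cycloheximide alone. Both groups received cycloheximide, which stops translation elongation, for 2 min before 30 min of biotin, and during that biotin step the medium of the DEP cultures again held tetrodotoxin and DL-AP5. KCl, the prior silencing and the renewed silencing therefore differ together between DEP and REST and cannot be told apart. The RNA of the same lysates (PSD95 inputs, 4 DEP and 4 REST) and the pulldowns with a TurboID that labels the whole neuron (Pan pulldowns, 4 DEP and 4 REST) served for comparison.

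PSD95 is a scaffold protein of the postsynaptic density, the protein layer beneath excitatory synapses on dendrites. TurboID attaches biotin to proteins close to it, UV light crosslinks RNA to the proteins it touches, and streptavidin beads recover the biotinylated proteins with that RNA. High extracellular KCl depolarizes neurons and opens voltage-gated calcium channels, and the calcium that enters drives the transcription of activity-dependent genes in the nucleus and changes in RNA transport and translation in dendrites.

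Each library holds estimated read counts for 51884 transcript models of the mouse genome (build mm10). The files identify the models by UCSC identifiers and do not pair them with gene symbols, and 0 identifiers matched the annotation used here. Results are therefore given per transcript model, no function is assigned to any of them, and the labelled cell type could not be checked against its markers. The 8 libraries held 2.95 to 12.5 M counts (M, 1000000). One model, uc009sgd.1 (3881 nt), took 2.45%, 3.81%, 70.2% and 11.8% of the counts in DEP replicates 1 to 4, against 6.45%, 4.61%, 73.9% and 46.6% in REST. Its share was lower in DEP in 4 of 4 pairs, with a log2 change of -1.51 ± 1.47 (SE, limma adjusted p = 0.589), and removing it with the next 2 models left 2692 calls where 2590 are given below. Outside the 3 most abundant models the DEP libraries held 11.8, 10.5, 1.59 and 4.66 M counts, against 11.4, 6.26, 0.632 and 3.23 M in REST. The DEP library was thus the deeper one in 4 of 4 pairs, by 1.03, 1.68, 2.52 and 1.44 times, and replicate 3 was the shallowest pair. The free-text descriptions of the 2 libraries of replicate 2 name the opposite state to their titles, and the titles were used.

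The PSD95 pulldowns of DEP and REST cultures differed in both directions. This difference is called the KCl change below, as a name only. Of 32553 transcripts tested, 1266 (3.89%) rose and 1324 (4.07%) fell in DEP relative to REST (limma, adjusted p under 0.05), 2590 (7.96%) in all. The transcripts that rose were the less abundant ones and changed more. Their median log2 change was 1.76 (quartiles 0.93 and 3.24) at a median of 9.53 CPM (counts per 1000000), and 908 of them (71.7%) changed 2-fold or more. The transcripts that fell were more abundant, with a median of 59.2 CPM, and changed less, with a median log2 change of -0.75 (quartiles -1.09 and -0.56), 388 of them (29.3%) 2-fold or more. Over all tested transcripts the median log2 change was 0.08, the median abundance was 5.64 CPM and 33.6% changed 2-fold or more in either direction. In such bulk libraries a change in the RNA per cell and a change in the number of cells that hold it cannot be told apart. The count of calls rested most on replicate 1, since 1 transcript passed without it, against 631, 2005 and 707 without replicates 2, 3 and 4. The even split between directions was not kept, and its tilt depended on the setting. Falls outnumbered rises without replicate 2 (219 rose and 412 fell), replicate 3 (700 and 1305) or replicate 4 (223 and 484). Rises outnumbered falls in DESeq2 (1506 and 1172 of 2678 calls) and at a mean CPM of at least 5 (1549 and 1344). Without the term for replicate number 542 passed, 307 up and 235 down. The quasi-likelihood test of edgeR called 178, all of them with the same direction as in limma.

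**Figure D1:**
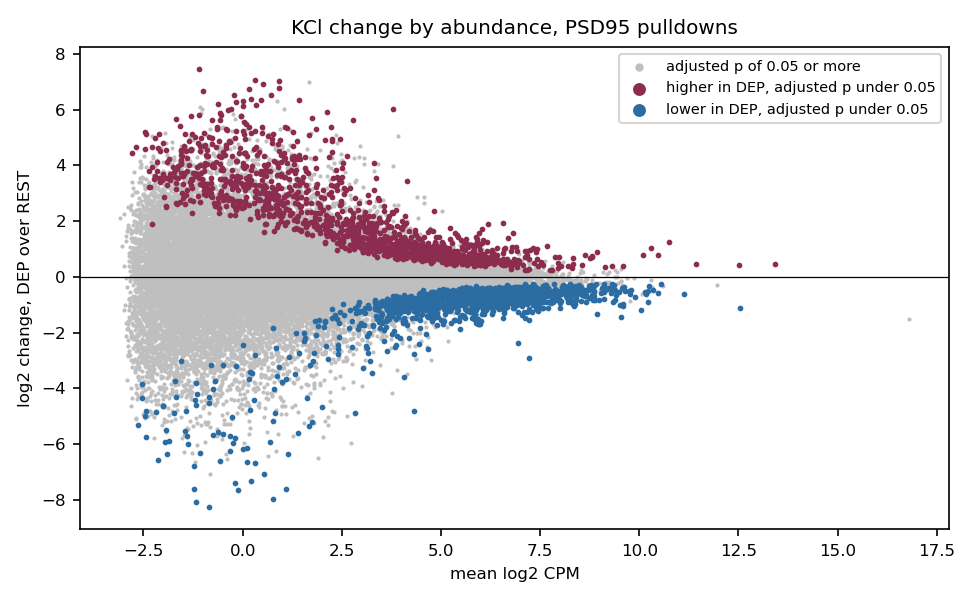
Each point is 1 of the 32553 transcripts tested, with its mean log2 CPM over the pulldown libraries on the x axis and its log2 change in DEP over REST PSD95 pulldowns on the y axis; colours mark an adjusted p under 0.05 (limma). The 1266 transcripts that rose spread to large changes at low abundance, and most of the 1324 that fell lie at high abundance with changes near the median of -0.75.

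In each direction, 2 transcripts are named by a rule on p, abundance and size of change, among the calls that moved the same way in 4 of 4 pairs. The CPM given for pulldowns were scaled by TMM factors among the 16 pulldown libraries. uc007mqv.1 (5284 nt) had 149, 106, 174 and 153 CPM in DEP replicates 1 to 4, against 40.5, 29.7, 30.2 and 41.7 CPM in REST. The 4 DEP libraries all lay above the 4 REST libraries, and the log2 change was 1.89 ± 0.15 (SE, limma adjusted p = 9.62e-05). uc008izq.1 (6037 nt) had 187, 141, 188 and 173 CPM in DEP, against 84.0, 69.9, 124 and 79.0 CPM in REST. These groups did not overlap either, the REST library of replicate 3 came closest to the DEP range, and the log2 change was 1.06 ± 0.10 (SE, limma adjusted p = 0.000201).

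Both transcripts named for a fall varied less between libraries in DEP than in REST. uc009oqz.1 (5928 nt) had 37.2, 35.4, 29.0 and 35.3 CPM in DEP, against 109, 117, 55.7 and 87.0 CPM in REST. Its log2 change was -1.51 ± 0.10 (SE, limma adjusted p = 2.06e-05), and its smallest difference was in replicate 3. uc008ezn.1 (10480 nt) had 36.2, 39.2, 42.5 and 41.4 CPM in DEP, against 124, 83.8, 114 and 120 CPM in REST. Its log2 change was -1.59 ± 0.10 (SE, limma adjusted p = 2.06e-05), and the groups did not overlap for either transcript. All 4 named transcripts kept their direction but lost their call without replicate 1 and with the states named in the descriptions.

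**Figure D2:**
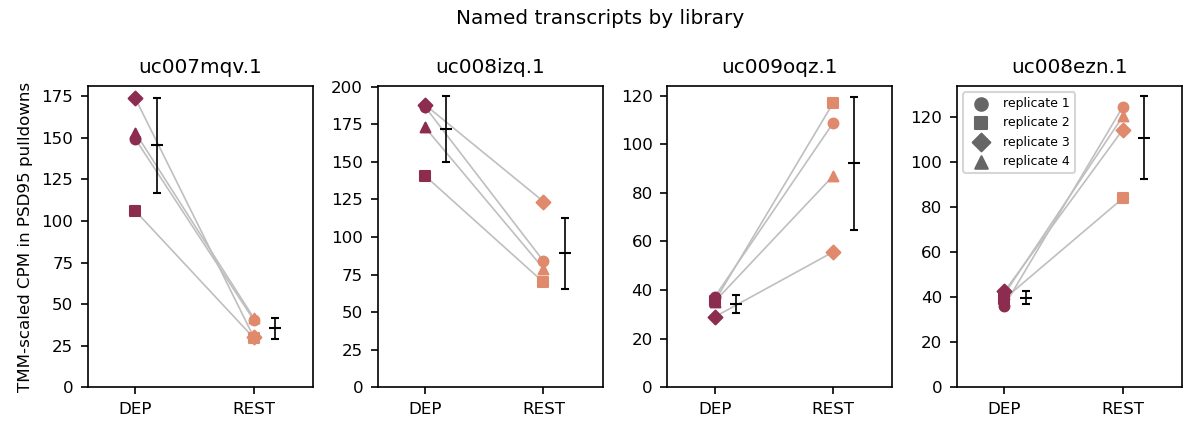
TMM-scaled CPM (y axis, from 0) of the 4 named transcripts in the 4 DEP (left) and 4 REST (right) PSD95 pulldown libraries; grey lines join libraries with the same replicate number, and black bars give the mean ± SD (n = 4). DEP and REST libraries do not overlap for any of the 4, with DEP above REST for uc007mqv.1 and uc008izq.1 and below it for uc009oqz.1 and uc008ezn.1.

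The direction of the calls depended on abundance. Of 9532 transcripts with a mean log2 CPM below 0, 2.53% rose and 0.514% fell. Of 5267 transcripts between 4 and 6, 5.71% rose and 9.25% fell. Of the 250 transcripts at 8 or above, 8.40% rose and 50.4% fell, so that 58.8% passed the test. The precision of the change moved along the same axis. Its median standard error was 1.28 log2 units in the lowest class and 0.09 in the highest, and the median absolute change of the called transcripts was 3.87 and 0.54 log2 units in those classes. The smallest called changes were thus in the abundant transcripts. Changes in CPM are relative to the scaling of the libraries, and the TMM factors of the 8 libraries ranged from 0.36 to 1.48. An offset in that scaling and a small change of a whole class were not separated. In an alternative added after the data were seen, the 3 most abundant models were left out. The deeper library of each pair was then thinned to the depth of the other. In this setting 1354 transcripts rose and 1355 fell, and 2451 of the 2572 earlier calls still tested passed in the same direction. In the thinned libraries the lowest class held 176 transcripts that rose and 20 that fell, of 5874 tested. The highest held 32 and 226, of 453 tested. These classes differ in size from those above and do not hold the same transcripts.

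Transcripts whose counts were not shared with other models gave tighter replicates. In 3687 tested transcripts every count was a whole number, which means that no read was divided between overlapping models, and 13.3% of them passed the test, 295 up and 195 down. Among the 28866 whose reads were shared, 7.27% passed. The median SD of log2 CPM was 0.45 in DEP and 0.56 in REST for whole-number transcripts, against 0.98 in DEP and 1.27 in REST for shared counts. The gap between both kinds was at low abundance, with 10.0% against 2.37% called at a mean log2 CPM below 0, and it was not there at 6 to 8, with 30.9% against 34.8%. Tested alone, the 3687 transcripts gave 683 that rose and 410 that fell, 29.6% in all.

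**Figure D3:**
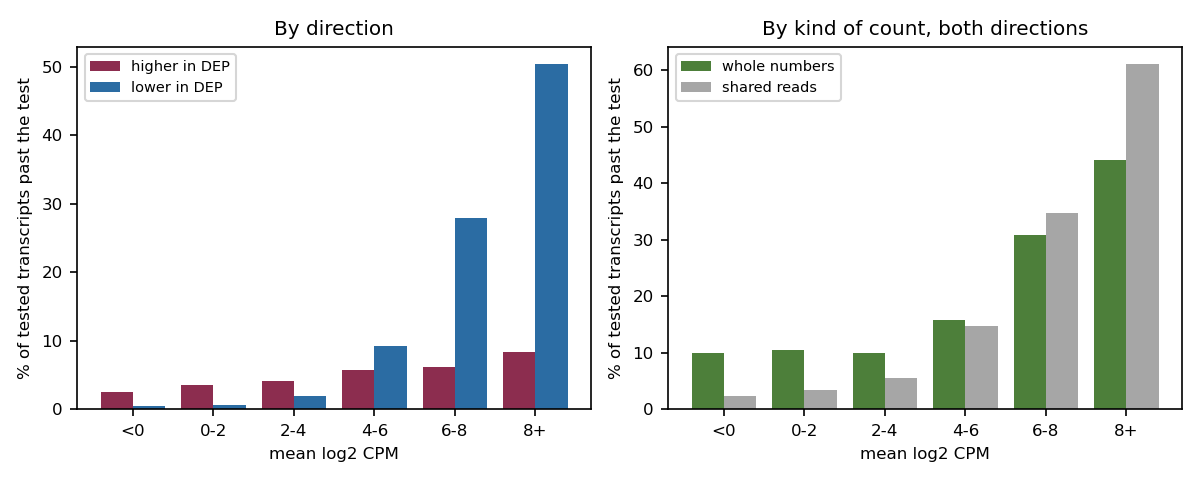
Percent of tested transcripts past an adjusted p of 0.05 (y axes, from 0) by mean log2 CPM (x axes), split by direction (left) and by whether all counts were whole numbers or included shared reads (right). The share that fell grows to 50.4% in the highest class, and whole-number transcripts passed more often than the rest in the 4 lowest classes.

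The libraries of a group were far from identical, and replicate pairs differed in how clearly they showed the change. Over 6835 abundant transcripts, replicate number accounted for 46.6% of the variance of log2 CPM on average and state for 23.6%. Replicate number has more levels than state and so takes a larger share of any noise. The 2 shares therefore do not rank the effects. The paired changes of 2 replicates correlated across these transcripts with Spearman's rho between 0.10 and 0.51 and Pearson's r between -0.01 and 0.31, as a description, since transcripts are not replicates. By rho, the 3 pairings with replicate 3 were the lowest. Among the 1266 transcripts that rose, 841 (66.4%) had all 4 DEP libraries above all 4 REST libraries, against 5.58% of all transcripts tested. Among the 1324 that fell, 465 (35.1%) had all DEP libraries below, against 2.6%. Since these separations come from the values that made the calls, they describe the lists and do not support them. The change had the called direction in 4 of 4 pairs for 1104 transcripts that rose (87.2%) and 887 that fell (67.0%), again values that made the calls, while 12.8% of all transcripts tested were higher and 7.60% lower in 4 of 4 pairs. In replicate 3 alone, 92.0% of the transcripts that rose and 73.1% of those that fell had the called sign.

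Replicate 1 held a median of 53.3% of the precision weight behind a called change, against 50.3% over all transcripts tested, and over 50% of it for 1904 of the 2590 calls. In 3 called transcripts, named because they are so few, at most 1 pair moved in the called direction: uc007wla.2, uc012bue.1 and uc033jng.1. The last, a model of 123 nt, had the smallest adjusted p of all (limma, 1.85e-18) for a log2 change of 0.45 ± 0.002 (SE). Its paired log2 changes were -1.72, -0.79, 0.45 and -2.89 in replicates 1 to 4, and replicate 3 carried 99.7% of its weight. It was therefore lower in DEP in 3 of 4 pairs while the fit called a rise, and the call rests on 1 pair. The same model took 34.7%, 24.8%, 91.4% and 45.9% of all TPM in DEP, against 60.7%, 36.2%, 86.5% and 81.7% in REST, so deposited TPM were not comparable between libraries and are not compared.

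Transcripts were next chosen in 3 replicates and read in the fourth, which did not take part in the choice. Of the 200 with the smallest p in the other replicates, 83.5%, 87.0%, 72.0% and 86.5% moved the same way in held-out replicates 1, 2, 3 and 4. Over all transcripts tested, 65.2%, 60.8%, 50.3% and 58.8% did. The change chosen in other cultures was thus seen in each held-out pair, least in replicate 3. Replicate 2, whose descriptions name the opposite state, moved with its titles. Taking the states from the descriptions gave 0 calls in limma and 4459 transcripts with p under 0.05 before adjustment, against 7523 with the titles; the other tools were run with the titles only.

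The same 200 transcripts were read in the PSD95 inputs and the Pan pulldowns of the held-out replicate, a measure chosen after the data were seen. Their median log2 change, signed by the direction of the choice, was 1.12, 1.02, 0.28 and 1.09 in the PSD95 pulldowns of replicates 1 to 4. It was 0.86, 0.78, 0.03 and 0.52 in the PSD95 inputs and 0.68, 0.61, 0.55 and 0.97 in the Pan pulldowns. The median was thus above 0 in each fraction of each replicate, and close to 0 in the input of replicate 3. The PSD95 pulldown exceeded the input in 4 of 4 replicates, by 0.33 ± 0.16 (SD, n = 4), and the Pan pulldown in 3 of 4, by 0.18 ± 0.33 (SD, n = 4). The transcripts were chosen on PSD95 pulldowns, which favours the pulldown in such a comparison, and with 4 pairs no exact two-sided test can go below p = 0.13.

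**Figure D4:**
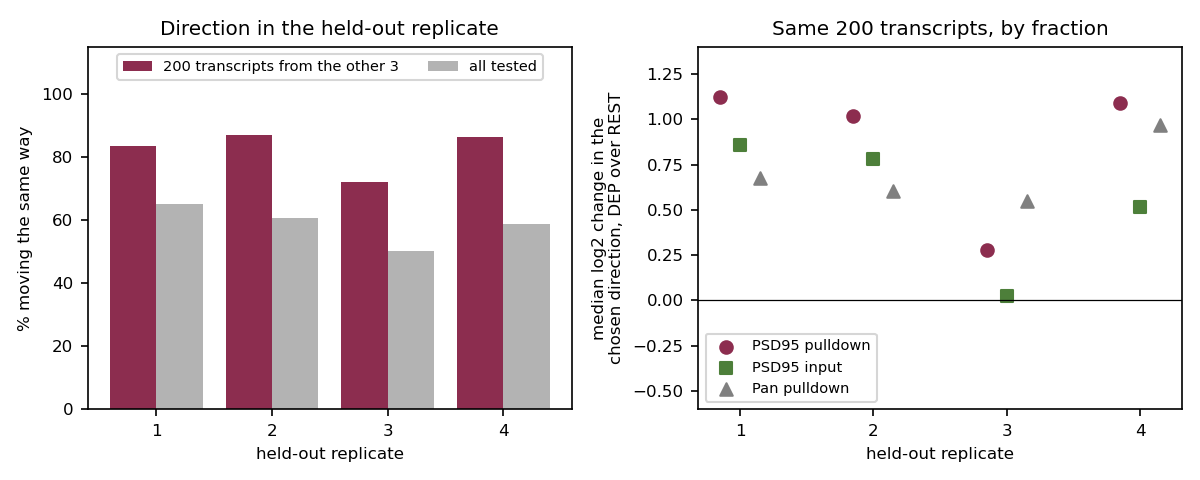
Left, percent of the 200 transcripts chosen in the other 3 replicates that moved the same way in the held-out replicate (x axis), beside that percent over all tested transcripts. Right, the median log2 change of those 200 in the held-out replicate, signed by the chosen direction, in PSD95 pulldowns, PSD95 inputs and Pan pulldowns; replicate 3 is lowest in the PSD95 pulldown, at 0.28, and in the input, at 0.03.

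The called transcripts took a changed share of the reads outside the 3 most abundant models. Those that rose held 10.4%, 9.58%, 9.82% and 8.79% of these reads in DEP, against 5.20%, 5.12%, 7.91% and 4.88% in REST. Those that fell held 18.0%, 18.2%, 17.4% and 19.3% in DEP, against 27.3%, 26.0%, 21.5% and 26.9% in REST. In the PSD95 inputs, the transcripts that rose in the pulldown had a median log2 change of 0.92, against 0.06 over all transcripts. Of the 1210 tested there, 92.5% were above 0, against 53.2% of all transcripts. In the Pan pulldowns the median of the transcripts that rose was 0.80, against -0.07 over all transcripts. The transcripts that fell had medians of -0.38 in the inputs and -0.45 in the Pan pulldowns. These lists were chosen on the PSD95 pulldown change, so larger values there are built into the choice. Detection moved the same way as depth: 38 transcripts had at least 10 counts in 4 of 4 DEP libraries and 0 in every REST library, and 5 had the reverse, while 8693 had at least 10 counts in all 8.

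Whether the pulldown change differed from that of the total RNA was tested by the difference of both changes. By limma 0 of 30335 transcripts were higher and 1 was lower (0.0033%), and 2028 had p under 0.05 before adjustment. Of the 29766 also tested for the KCl change, 1997 (6.71%) had such a p, where no difference at all gives a share of 0.05. DESeq2 called 248 higher and 191 lower, and edgeR called 0. On counts simulated with the spread of the pulldown libraries, DESeq2 called more unchanged transcripts than limma or edgeR. That simulation held no replicate effect, unlike the data. It was of the KCl change in PSD95 pulldowns and did not cover DESeq2 or edgeR for this difference. The 1 transcript was uc009opq.2 (3721 nt), which had 78.2, 66.1, 91.0 and 85.4 CPM in DEP pulldowns, against 203, 198, 289 and 308 CPM in REST pulldowns. In the inputs, scaled separately among the PSD95 libraries, it had 118, 96.8, 158 and 189 CPM in DEP, against 179, 145, 187 and 224 CPM in REST. It thus lay lower in DEP in both fractions, without overlap in the pulldowns and with overlap in the inputs. The log2 change was -1.53 ± 0.16 in the pulldown and -0.37 ± 0.09 in the input, and the difference of -1.16 ± 0.13 (SE) had a limma adjusted p of 0.048, in the same direction in 4 of 4 replicates. Pulldowns and inputs come from the same lysates, and the call was lost with a block for lysate (limma, log2 difference -1.11, adjusted p = 0.1), in edgeR (adjusted p = 0.339) and without any one of the 4 replicates. The fit above had a block for replicate number alone. With the lysate block 0 transcripts were higher and 6 were lower (limma), and uc009opq.2 was not among the 6. In the Pan pulldowns the transcript had a log2 change of -0.89 ± 0.14 (SE).

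**Figure D5:**
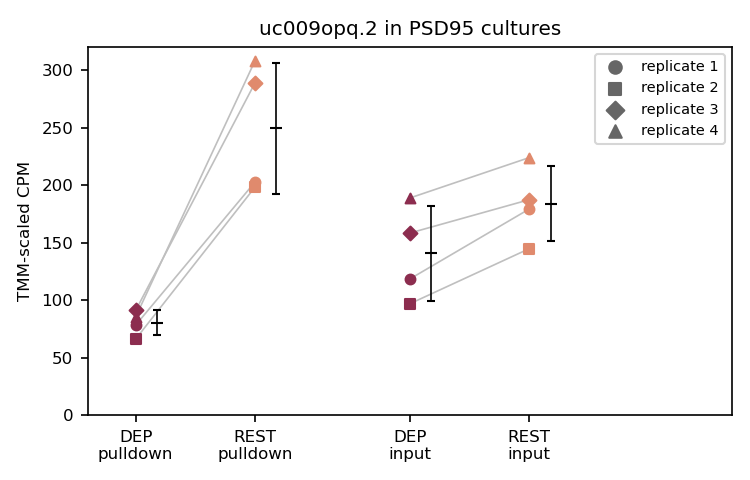
TMM-scaled CPM (y axis, from 0) of uc009opq.2 in PSD95 pulldowns and PSD95 inputs, DEP left of REST in each; grey lines join libraries of the same replicate number and black bars give the mean ± SD (n = 4). Pulldown levels are 66.1 to 91.0 CPM in DEP and 198 to 308 CPM in REST, while the input groups overlap; pulldowns and inputs were scaled separately.

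The difference from the KCl change in the Pan pulldowns passed for 7 of 32553 transcripts (0.0215%), 3 higher and 4 lower (limma), and 3849 (11.8%) had p under 0.05 before adjustment. DESeq2 called 448 higher and 317 lower, and edgeR called 0. No tool was run on simulated counts for this difference. uc008gfj.2 (6982 nt) had 8107, 7003, 6778 and 5002 CPM in DEP PSD95 pulldowns, against 6024, 5081, 6316 and 4791 CPM in REST. These groups overlapped although DEP was higher in 4 of 4 pairs, and the log2 change was 0.43 ± 0.03 (SE), beside -0.20 ± 0.05 in the Pan pulldowns. Its paired log2 changes were 0.43, 0.46, 0.10 and 0.06 in replicates 1 to 4, so the weighted estimate lay near replicates 1 and 2. uc007pau.3 (11472 nt) had a log2 change of 0.46 ± 0.05 in the PSD95 pulldowns, with the opposite sign in replicate 3, and -0.17 ± 0.06 in the Pan pulldowns. Its paired changes in the PSD95 pulldowns were 0.49, 0.30, -0.11 and 0.36. uc009ozx.3 (2104 nt) had 674, 728, 689 and 902 CPM in DEP PSD95 pulldowns, against 1243, 866, 848 and 1498 CPM in REST. DEP was lower in 4 of 4 pairs, by -0.88, -0.25, -0.30 and -0.73 on the log2 scale. The fitted log2 change was -0.73 ± 0.07 (SE), beside -0.04 ± 0.06 in the Pan pulldowns. uc008cqz.1 (2507 nt) did not pass in the PSD95 pulldowns themselves, with -0.13 ± 0.05 (SE, limma adjusted p = 0.148), beside 0.40 ± 0.05 in the Pan pulldowns. The number of calls thus changed with the tool, and it was 0 without replicate 1, 2 or 3 and 3 without replicate 4. Of the transcripts named above for their KCl change, uc007mqv.1 had a log2 change of 1.92 ± 0.13 (SE) in the Pan pulldowns and 2.09 ± 0.14 in the PSD95 inputs. uc009oqz.1 had -1.35 ± 0.10 in the Pan pulldowns and -1.40 ± 0.13 in the inputs. uc008izq.1 had smaller values there, 0.37 ± 0.09 in the Pan pulldowns and 0.56 ± 0.17 in the inputs, but neither difference passed (limma adjusted p = 0.109 and 0.687).

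Transcript length was the only property the files give for every model. Among tested transcripts the share that fell was 1.42% under 1000 nt and 11.7% at 8000 nt or more, and the share that rose was 2.45% and 6.51%. The median abundance also differed between these classes, from 2.34 to 27.5 CPM, so length and abundance moved together and their parts were not separated. Among the 6835 abundant transcripts, the paired change correlated with length at rho = -0.0356, -0.0245, -0.0231 and -0.0591 in replicates 1 to 4, a mean of -0.0356 ± 0.0167 (SD, n = 4). All 4 values were below 0 and near it, and the exact two-sided sign-flip test over 4 replicates gave p = 0.13, the smallest it can give. Length classes were also compared by how far their median change lay from that of the whole abundant set, replicate by replicate. Under 1000 nt this offset was 0.05, 0.12, 0.01 and 0.24 log2 units in replicates 1 to 4. At 8000 nt or more it was -0.05, 0.01, -0.04 and -0.11. Such offsets place the classes relative to each other and do not say whether a class rose or fell.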

How the data were processed

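RNA from streptavidin pulldowns and inputs was sequenced from stranded, ribosomal RNA-depleted libraries. The authors quantified reads with salmon against mm10 UCSC knownGene transcripts; the salmon version is not given in the sources used here. Their deposited files hold expected counts, in which reads matching several models are divided among them, and TPM, which the authors' tool scaled to 1000000 per library. Per the deposited files, the expected counts are estimated counts as the authors' run of salmon gave them. Deposited transcript lengths were used as given. TPM were not tested.

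Expected counts were rounded to whole numbers and tested with limma 3.58.1 (voomWithQualityWeights) in R 4.3.3, after the filterByExpr filter and TMM scaling of edgeR 4.0.16, in a model of group and replicate number, two-sided, with Benjamini-Hochberg adjustment at 0.05 over all tested transcripts. The choice of filter, weights and model terms follows the study's methods, but every transcript model entered here, where the study kept 1 transcript, the longest, per gene. The fit used the 16 pulldown libraries, or the 16 PSD95 libraries for the difference from inputs; 3 comparisons were made. The states came from the titles. The members and lists were chosen with earlier results of these data known. Log2 CPM for paired changes used a prior count of 2, and abundant transcripts had a mean count of at least 200. Whole-number transcripts had every count of every library whole to within 0.001. Named transcripts had the smallest limma p among calls whose mean log2 CPM reached 1 and whose absolute log2 change reached 0.5, limited to 2 in each direction because the identifiers carry no gene names; uc033jng.1, uc007wla.2, uc012bue.1 and uc009sgd.1 were named after their values were seen. Gene lists and marker lists were not run for the same reason. Other tools tried were DESeq2 1.42.0 and the quasi-likelihood test of edgeR, beside other scaling, filters and weights, other sets of libraries and leaving out each replicate.

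By the study's methods the 4 libraries of a group are biological replicates processed in batches, and replicate number was kept as a block. Between DEP and REST, residuals correlated at a mean r of 0.119 in same-numbered libraries and -0.034 in others. The p-values rest on the spread between these libraries as weighted in the fit. In the pulldown fit replicate 1 held a median of 50.3% of the weight over all transcripts tested. A standard error can therefore be smaller than the spread of the 4 paired changes. No 2 libraries of a group agreed within sampling noise (smallest chi-square per degree of freedom 39.7). The tests were tested on simulated data. Of the tools, limma, DESeq2 and edgeR were run for the KCl change in PSD95 pulldowns, and limma alone for the difference from inputs. No replicate effect was simulated. With the spread of the pulldown libraries, DESeq2 called more unchanged transcripts there than limma or edgeR, and its counts are given only as an alternative. Figures were drawn with matplotlib 3.10.9.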

Additional observations from a re-analysis of the deposited data

Results flagged for a closer look

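A library stood apart from the other 3 of its group in 4 of 32 groups of values examined, where chance gives about 1 in 20 for independent groups. These groups were not independent, since some hold the same model in the same libraries. Many are of transcripts named for their results, so the count cannot be judged against chance in either direction. All were DEP PSD95 pulldowns. The library of replicate 1 had 4031 CPM of uc007pau.3, and the library of replicate 3 had 1893000 CPM of uc009sgd.1, a TMM-scaled value that can exceed 1000000, and 163000 CPM of uc033jng.1, with 70.2% of its counts in uc009sgd.1.

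The KCl change differed between PSD95 pulldowns and a comparison fraction for 5 named transcripts, by the test of the difference itself in limma. It was lower by a log2 difference of -1.16 for uc009opq.2 relative to PSD95 inputs. Relative to Pan pulldowns the log2 difference was 0.63 for uc008gfj.2, 0.63 for uc007pau.3, -0.69 for uc009ozx.3 and -0.53 for uc008cqz.1.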

How the results depend on the processing

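The number of calls of the KCl change in PSD95 pulldowns, 2590, depended on the setting. It was 178 in edgeR, 1587 without quality weights, 542 with no replicate block, 0 with the states named in the descriptions and 1324 from the 8 PSD95 pulldowns alone. Whole-number transcripts tested alone gave 1093 of 3687 (29.6%), and 1171 of 3455 (33.9%) after thinning, added later. The main fit had called 490 (13.3%) of those 3687, so testing them alone called more of them. DESeq2 gave 2678, and a mean CPM of at least 5 gave 2893. Leaving out 1 replicate gave 1 to 2005 calls, fewest without replicate 1, and without replicate 3 the transcripts that rose numbered 700 and those that fell 1305.

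For the difference from inputs, called for 1 transcript, the count was 0 in edgeR, with a mean CPM of at least 5, with no replicate block, with the descriptions' states and without the libraries in which 1 model took over 50% of counts. It was 439 in DESeq2, 3 with RLE size factors, 2 without quality weights, 37 with no filter, 8 in 1 model of all libraries and 6 with a lysate block, and 0 to 1 with a replicate left out. For the difference from Pan pulldowns, called for 7, it was 0 in edgeR, without quality weights, with a mean CPM of at least 5, with no replicate block and without the libraries over 50%. It was 765 in DESeq2, 33 with RLE size factors, 98 with no filter, 2 with the descriptions' states, 147 in 1 model of all libraries and 17 without the 3 most abundant models, and 0 to 3 with a replicate left out. The causes were not tested.

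The mean correlation of change with length was -0.0158 at a mean count of at least 50, -0.0899 at 1000 and -0.0713 in whole-number transcripts, and -0.0398 to -0.0277 with a replicate left out. The share moving the same way in the held-out replicate averaged 82.2%, and 87.5% for the top 50, 78.0% for the top 1000 and 83.9% without quality weights. The 9 transcripts named by rule kept their direction in all alternatives run for them. The 4 named for their KCl change passed in 15 of 17, and the 5 named for a difference in 3 to 5 of the 15 or 16 run for them. The 2 libraries of replicate 3, with 1.59 M counts (M, 1000000) in DEP and 0.632 M counts in REST outside the 3 most abundant models, limit what that pair can show.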
